A study of Homo sapiens with 8 samples.

Results

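The genes described here encode subunits of the COP9 signalosome, and they were taken as the probes, control spots excluded, that carry the name of GPS1, COPS2, COPS3, COPS4, COPS5, COPS6, COPS7A, COPS7B or COPS8. The 9 genes had 11 of the 50599 probes of the array, 1 probe per gene except for COPS7B and COPS8, which had 2 each. RNA of 2 established human cell lines was measured 48 h after transfection on 8 one-colour arrays, 2 per group. Nthy-ori 3-1, an immortalised line from normal follicular thyroid, received pre-miR-375, a mimic of the microRNA miR-375, or a control. TT, a line from a medullary thyroid carcinoma, which is the tumour of the calcitonin-secreting C cells, received antagomiR-375, an inhibitor of the same microRNA, or a control. The labels name both controls CTL only and give final concentrations of 5 nM for the mimic and 20 nM for the inhibitor, whereas the methods of the study give higher ones. All groups went through lipid transfection, so no group holds untouched cells, and each line stands for 1 cell line and not for a tissue. Replicates of a line lay on separate slides (Nthy-ori 3-1 on slides 1 and 2, TT on slides 3 and 4), each slide with 1 control and 1 treated array. The methods of the study call the replicates biological, while the labels do not say whether they were separate cultures, and p-values measure the spread between these samples.

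The COP9 signalosome is a protein complex that removes the ubiquitin-like protein NEDD8 from cullins, the scaffolds of the largest family of ubiquitin ligases. Cullins are active with NEDD8 attached, and the cycle of attaching and removing it lets them exchange the receptors that choose which proteins are marked for degradation. COPS5 carries the metalloprotease site that cuts NEDD8 off, and COPS6 is its inactive partner with the same MPN fold. GPS1, COPS2, COPS3, COPS4, COPS7A or COPS7B, and COPS8 are scaffold subunits with a PCI domain. The lid of the proteasome and the translation factor eIF3 are built from subunits of the same families.

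The sequence of the microRNA that was raised in one line and blocked in the other is given first, because both treatments act through it. Mature hsa-miR-375-3p (RefSeq, GRCh38.p14, chr2:219001648-219001669, minus strand) has 22 bases, and the capitals mark the seed, bases 2 to 8.
hsa-miR-375-3p: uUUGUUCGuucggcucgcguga
The complement of seed bases 2 to 7, GAACAA, was searched in the probe sequences, which run in the sense of the transcript. It was in 1 of the 11 probes, that of COPS6, and in 2.21% of all 50599 probes. The complement of bases 2 to 8, CGAACAA, and the form GAACAAA, which overlap with GAACAA, were in 0 of the 11 probes and in 0.0613% and 0.775% of all probes. A probe covers 60 bases of a transcript, so that the search says nothing about the rest of these transcripts. The COPS6 probe is shown for this match, in capitals, and the COPS8 probe nearer to the start of its transcript because a result below turns on it.
COPS6 probe: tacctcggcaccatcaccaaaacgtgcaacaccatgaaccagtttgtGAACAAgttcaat
COPS8 near probe: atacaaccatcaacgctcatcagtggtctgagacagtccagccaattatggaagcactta
In the build of the array files (hg19) the COPS6 probe lies at chr7:99689299-99689358 and the near COPS8 probe, at position 857 of transcript NM_198189, at chr2:237998575-237998634, both on the plus strand. The other COPS8 probe, called the far probe, starts 1346 bases further along the same transcript, at position 2203, and lies at chr2:238007370-238007429. Whether a probe lies in coding sequence was not read from an annotation.

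All 11 probes were well above background on each of the 8 arrays. Values are log2 signals after quantile normalization of the 8 arrays, and levels of different probes cannot be set against each other. Of the markers of C cells and medullary carcinoma, CALCA (calcitonin), CHGA, CEACAM5 and RET were well above background on all 4 TT arrays, and each was higher in the TT than in the Nthy-ori 3-1 controls at an adjusted p of at most 0.05, while CALCB was not on the array. In Nthy-ori 3-1, the brighter RET probe was well above background on 4 of 4 arrays, and the other RET probe and CEACAM5 on none. The brightest CALCA probe and the CHGA probe were so on the 2 pre-miR-375 arrays only, with signals of 8.12 and 4.51 for CALCA and of 4.91 and 5.13 for CHGA (adjusted p = 0.511 and 0.363), against 3.91 and 3.57 and 3.46 and 2.09 in the controls. The 2 other CALCA probes were well above background on no Nthy-ori 3-1 array. Of the follicular markers, PAX8 was lower in TT (by a difference of -5.25), FOXE1 was well above background on the 4 Nthy-ori 3-1 arrays only, and TG was higher in TT (by 4.26). NKX2-1 was well above background on the 4 TT arrays only, and TSHR on none of the 8. Nthy-ori 3-1 thus lacked NKX2-1 and TSHR signal among the genes that define follicular cells.

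In Nthy-ori 3-1 cells, the question was which transcripts moved when miR-375 was added. No subunit passed the test across all probes, and COPS2 and the far COPS8 probe had the lowest values of pre-miR-375 against control. COPS2 was at 10.39 and 11.40 in the controls and at 9.71 and 10.58 with pre-miR-375 (means 10.89 ± 0.710 and 10.14 ± 0.618, SD, n = 2). The groups overlapped, since slide 2 was higher than slide 1 in both, but on each slide the treated array was the lower one, by differences of -0.69 and -0.82. The limma estimate, which compares within slides, was -0.75 with a standard error of 0.0921, or 1.68-fold lower, at an adjusted p of 0.318. In this comparison 0 probes (0.0%) were called at an adjusted p of 0.05, and other probes shared its smallest adjusted p with COPS2. Among them DCUN1D5, a gene described below, had an unadjusted p of 0.00825 in limma, while COPS2 had an unadjusted p of 0.0149. Over the alternatives its estimate ran from -0.81 to -0.71 and its adjusted p from 0.0361 to 0.906, and it was called in 2 of 10, the same 2 that called the far COPS8 probe below. In RNA of whole cultures, signal in fewer cells and less RNA per cell cannot be told apart. COPS2 is a scaffold subunit that contacts the ubiquitin ligase, and its probe lies at chr15:49419961-49420020 on the minus strand.

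The far COPS8 probe was at 7.61 and 7.96 in the Nthy-ori 3-1 controls and at 6.42 and 7.08 with pre-miR-375. These groups did not overlap, and how many of all genes had no overlap was not counted for the treatments. Its estimate was -1.03 (standard error 0.136, 2.05-fold lower, adjusted p = 0.318), with differences of -1.19 and -0.88 on the 2 slides. The near COPS8 probe had a smaller difference of the same sign. It was at 10.35 and 11.23 in the controls and at 10.17 and 10.65 with the mimic, an estimate of -0.38 (standard error 0.16, adjusted p = 0.488), and its groups overlapped. COPS8 is the smallest of the core subunits. The far probe was called in 2 alternatives, with normexp background correction (adjusted p = 0.0465, where 3.08% of all probes were called) and with dim probes left out (adjusted p = 0.0287, where 10.9% were), and the range over all alternatives was 0.0287 to 0.603.

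Of the catalytic pair, COPS5 was at 12.09 and 12.57 in the controls and at 12.12 and 12.97 with pre-miR-375, an estimate of 0.22 (standard error 0.157, adjusted p = 0.612). Its partner COPS6, whose probe holds the seed complement, was at 14.20 and 14.43 in the controls and at 13.90 and 14.28 with the mimic, an estimate of -0.23 (adjusted p = 0.486). Neither difference stood out from the spread between replicates. Among the scaffold subunits, COPS3 was at 12.74 and 12.96 in the controls and at 12.52 and 12.71 with the mimic (-0.24, adjusted p = 0.426), so its groups did not overlap. COPS4 went from 10.98 and 11.42 to 10.53 and 11.21 (-0.33, adjusted p = 0.434). GPS1 had values of 12.15 and 12.25 in the controls and of 12.13 and 12.47 with the mimic (0.10, adjusted p = 0.728). For these 3 scaffold subunits the interval of the difference held 0, from -0.58 to 0.11 for COPS3, from -0.82 to 0.17 for COPS4 and from -0.40 to 0.60 for GPS1.

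COPS7A and COPS7B are alternative forms of the same position in the complex. COPS7A was at 9.83 and 10.83 in the controls and at 9.71 and 11.12 with pre-miR-375, and its difference was negative on slide 1 (-0.12) and positive on slide 2 (0.29). COPS7B had negative differences on both of its probes. Its far probe, at position 1330 of its transcript, gave an estimate of -0.32 (adjusted p = 0.537) and its near probe, at position 828, gave -0.19 (adjusted p = 0.494). Both pairs of COPS7B differences had the same sign, -0.52 and -0.13 for the far probe and -0.16 and -0.23 for the near probe.

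Counted by gene, with the brighter probe standing for COPS7B and COPS8, 6 of 9 subunits were lower on both slides and 1 was higher on both. Over all genes with an average of at least 6, 33.4% were lower on both slides and 41.2% higher on both. The median difference of the 9 subunits was -0.24, beside 0.05 over 15888 genes with an average of at least 6 in this line. By size, meaning a difference of at least 0.6 in the same direction on both slides at an average of at least 6, 1 of 9 subunits (COPS2) was lower and 0 were higher, whereas 8.25% of genes were lower and 6.9% higher by that rule. Counted by probe, 2 of 11 were lower by size and 0 higher, against 8.57% and 6.58% of probes. At an unadjusted p under 0.05, limma had 1 of 9 genes and 2 of 11 probes, against 22.9% of genes and 22.7% of probes with an average of at least 6 (14.3% of all probes). These counts describe the subunits and were not tested as a group.

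**Figure D1:**
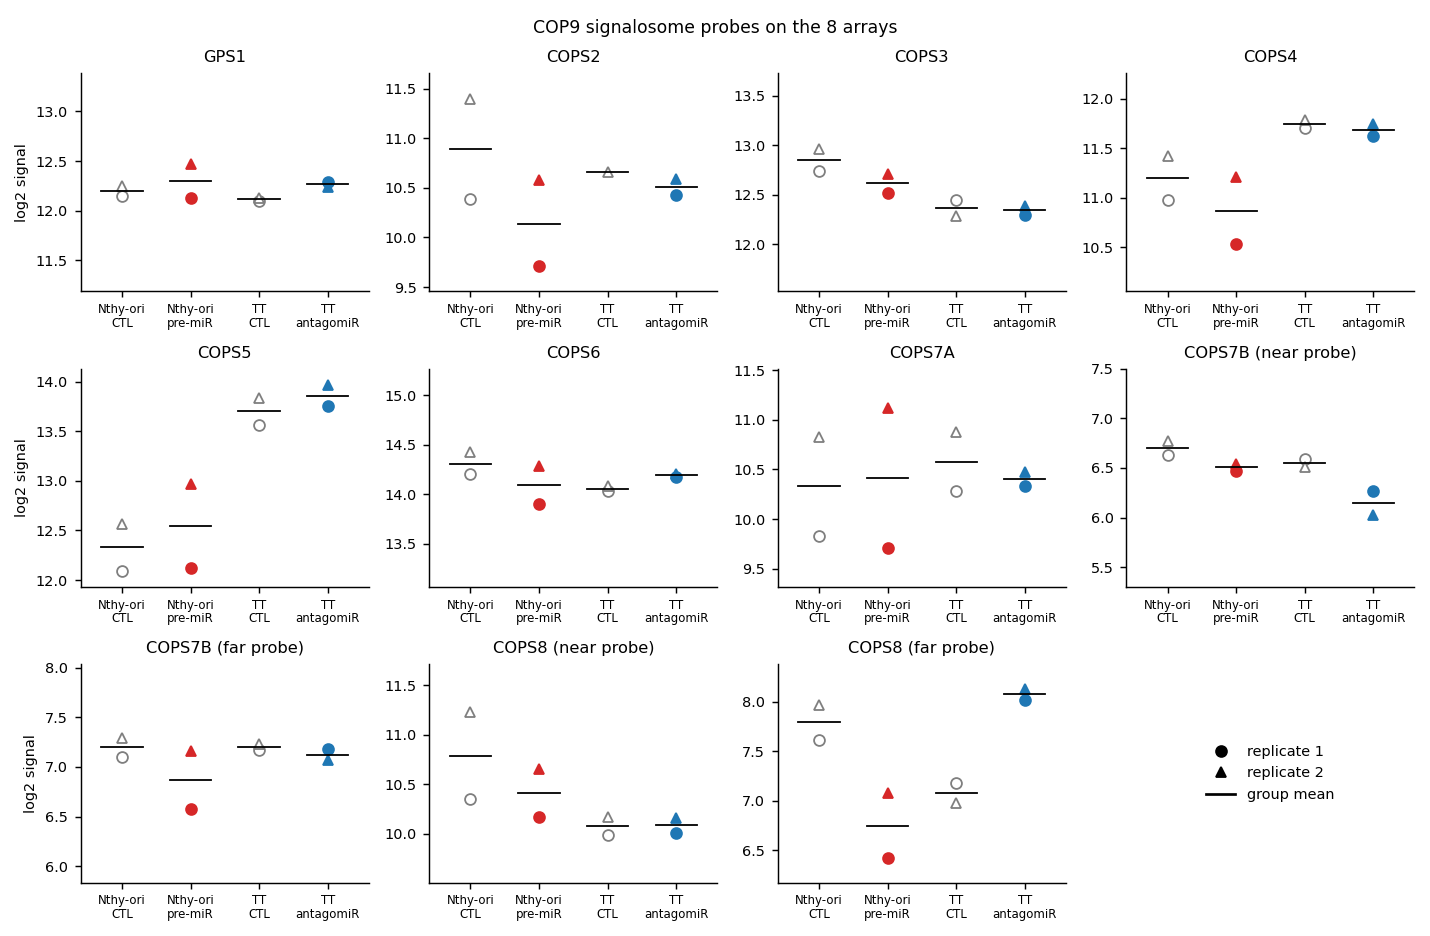
Log2 signal (vertical axis, each panel spanning the same range) of the 11 COP9 signalosome probes in the 4 groups, with 1 symbol per array and the group mean as a line. The Nthy-ori 3-1 arrays of replicate 2 lie above those of replicate 1 in all 11 panels, the COPS5 signal is higher in TT cells, and the far COPS8 probe has means of 7.79 without and 6.75 with pre-miR-375 in Nthy-ori 3-1, and of 7.08 without and 8.08 with antagomiR-375 in TT cells. COPS2 has no value for 1 TT control array.

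For COPS2 the gaps between slides (1.0 in the controls and 0.87 with the mimic) were larger than its difference with the treatment, while for the far COPS8 probe (0.35 and 0.66) they were smaller. On slide 2 each of the 11 probes was higher than on slide 1, in the controls and with pre-miR-375 alike, by 0.07 to 1.41 and by 0.56 at the median of the 9 genes, whereas 39.5% of all genes were higher on slide 2 in both groups. In the controls the gap was widest for COPS7A (1.0 in the controls and 1.41 with the mimic), COPS2 and the near COPS8 probe (0.88 and 0.49). With the mimic COPS5 differed by 0.86. GPS1 differed by 0.10 in the controls and 0.34 with the mimic, and COPS3 by 0.22 and 0.20. In TT cells the subunits differed by 0.07 between slides at the median, with 5 of 8 genes higher on slide 4 in both groups, beside 27.4% of all genes. Slide and replicate cannot be told apart.

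In TT cells, the question was the reverse, which transcripts moved when miR-375 was blocked. The far COPS8 probe was the one subunit probe with a large difference. It was at 7.18 and 6.98 in the controls and at 8.02 and 8.13 with antagomiR-375 (means 7.08 ± 0.144 and 8.08 ± 0.0781, SD, n = 2). The groups were far apart, and the differences within slides were 0.84 and 1.15. The estimate was 1.0 (standard error 0.136, 1.99-fold higher) at an adjusted p of 0.512, with 0 probes (0.0%) called. Other probes shared that adjusted p, the smallest in this comparison, such as the near COPS7B probe with an unadjusted p of 0.0513 in limma. The far COPS8 probe had an unadjusted p of 0.0151. Its adjusted p ran from 0.0918 to 0.571 over the alternatives, and its estimate from 0.74 to 1.15. RIN, the score of RNA integrity, was 8 for both TT control RNAs and 9 for both antagomiR-375 RNAs, and its part in this difference was not tested.

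The near COPS8 probe, on the same transcript, was at 9.99 and 10.17 in the TT controls and at 10.01 and 10.16 with antagomiR-375. Its estimate was 0.01 with an interval from -0.33 to 0.35 (adjusted p = 0.97). COPS7B also had unlike probes, with an estimate of -0.40 (standard error 0.0988, adjusted p = 0.512) on the near probe, from 6.59 and 6.51 to 6.27 and 6.03, and of -0.08 (adjusted p = 0.781) on the far one. The other subunits with a test had estimates between -0.18 (COPS7A) and 0.16 (COPS5). Over the 4 TT arrays COPS3 ran from 12.29 to 12.45, COPS6 from 14.03 to 14.20, GPS1 from 12.10 to 12.29 and COPS7A from 10.28 to 10.88. The intervals of the differences reached from -0.19 to 0.50 for COPS5, from -0.20 to 0.47 for COPS6, from -0.20 to 0.50 for GPS1, from -0.51 to 0.46 for COPS3, from -0.39 to 0.28 for COPS4 and from -0.90 to 0.54 for COPS7A. COPS2 was not tested in TT cells, because its spot on 1 control array was marked as an outlier by the scanner software and left out. On the other slide its difference was -0.08, from 10.66 to 10.59, and with the marked spot kept the estimate was -2.46.

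By gene, 3 of 8 subunits were higher on both slides (COPS5, COPS6 and GPS1) and 1, COPS4, was lower on both, and over all genes the shares were 31.9% and 36.2%. The median of the 8 subunits was -0.01, as it was over 16255 genes. By size, 0 of 8 genes were called in either direction (2.85% of genes were higher and 1.47% lower). By probe, 1 of 10 was higher by size and 0 lower, against 2.78% and 1.47% of probes. At an unadjusted p under 0.05, limma had 0 of 8 genes and 1 of 10 probes, beside 10.2% of genes and 10.1% of probes with an average of at least 6 (9.73% of all probes).

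**Figure D2:**
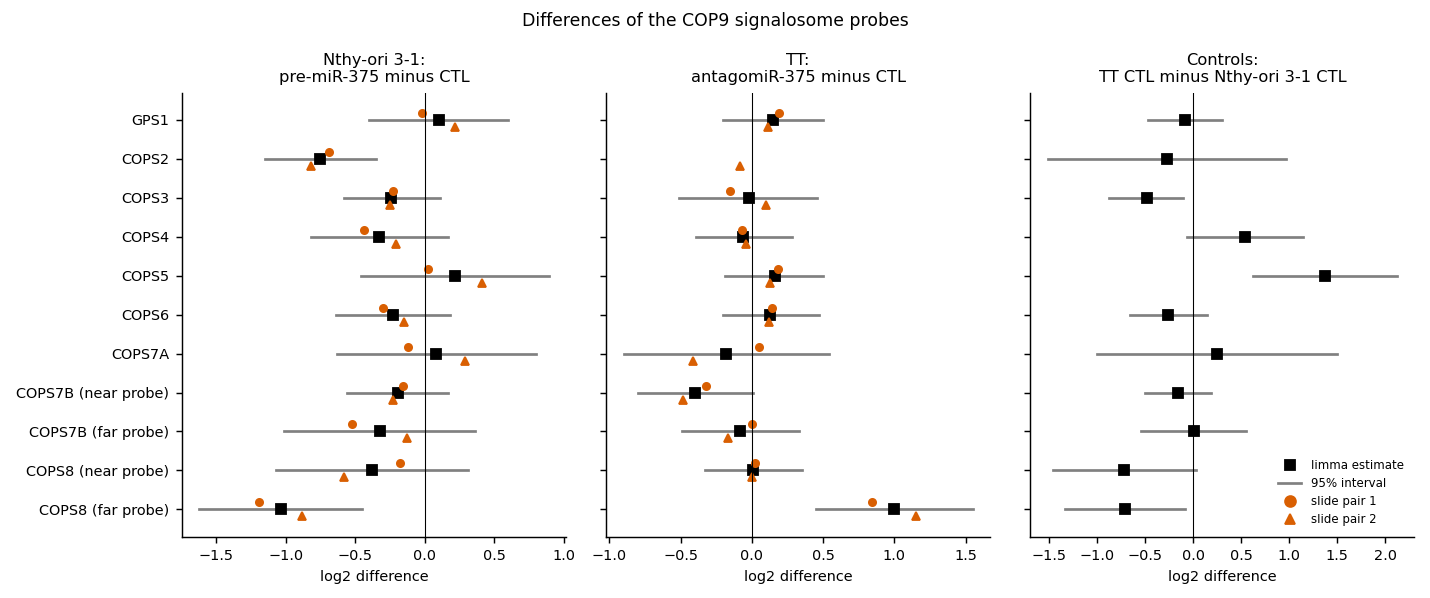
Log2 differences (horizontal axis) of the 11 probes for pre-miR-375 against control in Nthy-ori 3-1, for antagomiR-375 against control in TT, and for the TT against the Nthy-ori 3-1 controls. Squares are limma estimates with 95% intervals, and circles and triangles are the differences within each slide. The far COPS8 probe is at -1.03 in the left panel and at 1.0 in the middle panel, and COPS5 is at 1.37 in the right panel.

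The TT effect and the Nthy-ori 3-1 effect were then set against each other in 1 fit over the 8 arrays. The far COPS8 probe differed by 2.03 (standard error 0.212, interval from 1.38 to 2.68), with both Nthy-ori 3-1 slides negative and both TT slides positive. The adjusted p was 0.149, where 0 of all probes (0.0%) were called and 16.6% had an unadjusted p under 0.05. It was at most 0.05 in 4 alternatives, the deposited values (estimate 1.48, adjusted p = 0.019), normexp background correction (1.44, 0.0132), the median signal without background correction (1.47, 0.0175) and the fit without dim probes (2.03, 0.0177). These called 3.32%, 5.13%, 3.38% and 11.7% of all probes. The next largest difference was that of COPS2, 0.67 (adjusted p = 0.332), which rests on 1 TT slide. Those of the near COPS8 probe and of COPS6 were 0.39 and 0.36 (adjusted p = 0.464 and 0.343). The 2 treatments differed in reagent, concentration and cell line, so that a difference between the effects cannot be told apart from these.

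Because both COPS8 probes belong to 1 transcript, the change of the far probe relative to the near one was compared with the same change in other transcripts. This comparison was chosen after the probe values had been seen. It used 2400 transcripts with a pair of probes well above background on all 8 arrays. With pre-miR-375 the far-to-near log2 ratio of COPS8 changed by -1.0 on slide 1 and by -0.30 on slide 2, an estimate of -0.65 (standard error 0.216, adjusted p = 0.347). With antagomiR-375 it changed by 0.82 and 1.16, an estimate of 0.99 (standard error 0.143, adjusted p = 0.332). The median change over the 2400 transcripts was 0.02 in either line, and limma called 0 of them in either line, with 14.1% and 9.79% at an unadjusted p under 0.05. In Nthy-ori 3-1, 3.67% of the transcripts had a change at least as far below 0 as that of COPS8, and in TT 0.667% had one at least as far above 0. The difference between the lines was 1.64 (standard error 0.293, adjusted p = 0.108). In TT cells the change was called with the deposited values (0.75, adjusted p = 0.00129) and with the median signal (0.77, adjusted p = 0.00705), which called 3.83% and 2.12% of the transcripts, and its adjusted p was between 0.0628 and 0.332 otherwise. The size depended on the setting. With the deposited values, normexp correction and the median signal, the change in Nthy-ori 3-1 was -0.38, -0.34 and -0.32 (adjusted p = 0.302, 0.262 and 0.414) and the difference between the lines was 1.13, 1.05 and 1.09 (adjusted p = 0.0659, 0.0543 and 0.0673). For COPS7B, with 502 bases between its probes, the changes were -0.13 (adjusted p = 0.78) in Nthy-ori 3-1 and 0.31 (adjusted p = 0.507) in TT cells.

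**Figure D3:**
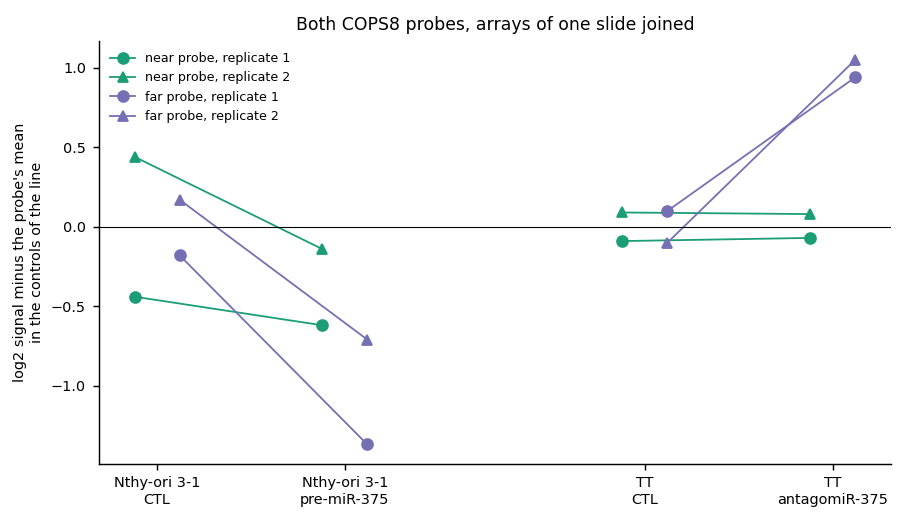
Log2 signal of the near and the far COPS8 probe on each array, less the mean of that probe in the controls of the same line (vertical axis), with arrays of 1 slide joined. With antagomiR-375 the far probe is at 0.94 and 1.05 while the near probe is at -0.06 and 0.09, and with pre-miR-375 both probes are lower on both Nthy-ori 3-1 slides.

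**Figure D4:**
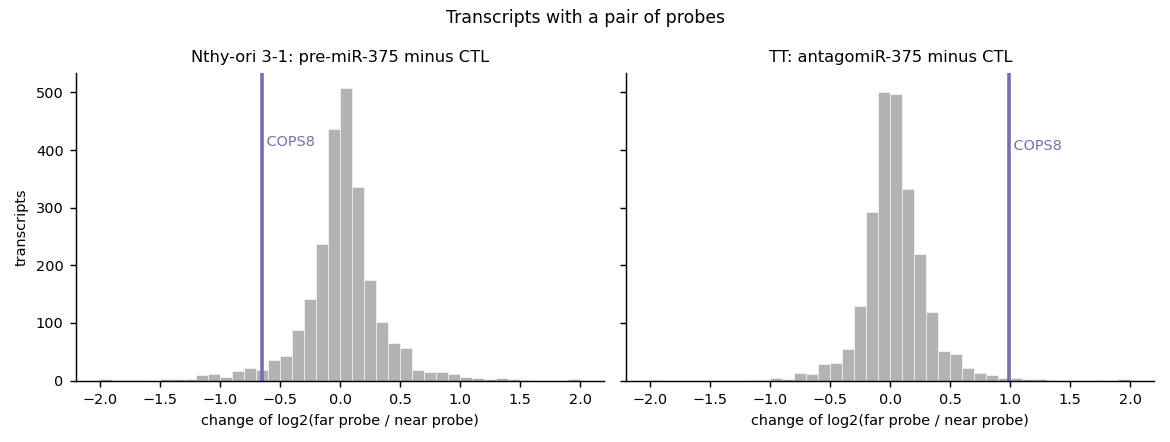
Number of transcripts (vertical axis) by the change of their far-to-near log2 probe ratio (horizontal axis, bins of 0.1, with values beyond the axis in the end bins) for pre-miR-375 against control in Nthy-ori 3-1 and for antagomiR-375 against control in TT. The line marks COPS8, at -0.65 on the left and at 0.99 on the right.

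Between the control groups of the lines, COPS5 was the one subunit with a call. Its signal was 12.09 and 12.57 in the Nthy-ori 3-1 controls and 13.56 and 13.84 in the TT controls (means 12.33 ± 0.335 and 13.70 ± 0.193, SD, n = 2), so that the groups did not overlap. The estimate for TT over Nthy-ori 3-1 was 1.37 (standard error 0.297, 2.59-fold, adjusted p = 0.0205). The treated arrays, which were not part of that contrast, lay at 12.12 and 12.97 in Nthy-ori 3-1 and at 13.75 and 13.97 in TT, so that the 4 arrays of each line did not overlap. The call was lost without any single control array, with adjusted p of 0.0628 to 0.0837 and estimates of 1.30 to 1.46. The share of all probes called in this comparison was 30.1%, and of genes with an average of at least 6, 23.6% were called higher and 24.4% lower. Line, slide, medium and control reagent cannot be told apart here. The COPS5 probe lies at chr8:67958167-67963495 on the minus strand, a span that contains an intron. COPS3, COPS5 and COPS8 have pseudogene copies, and signal from such copies could not be separated.

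Both COPS8 probes had negative differences between the controls, -0.72 on the near probe (standard error 0.296, adjusted p = 0.146) and -0.71 on the far probe (standard error 0.248, adjusted p = 0.0957). Without control replicate 1 of Nthy-ori 3-1, the near probe passed (-1.06, adjusted p = 0.0435, with 27.0% of all probes called), and without control replicate 2 it was at -0.36 (adjusted p = 0.415), under the size of 0.6 used here. With normexp correction the far probe passed (-0.52, adjusted p = 0.0361, with 31.1% called), and otherwise its adjusted p was at most 0.275. COPS3 was at -0.48 (standard error 0.152, adjusted p = 0.0683) with no overlap of the control groups, where 40.5% of genes were lower and 36.6% higher without overlap. It passed with normexp correction (adjusted p = 0.00778) and with a variance trend (0.0293, with 30.9% of probes called), and its adjusted p reached 0.192 in the other alternatives. COPS4 was at 0.54 (adjusted p = 0.168), and its 4 TT arrays, from 11.62 to 11.78, lay above its 4 Nthy-ori 3-1 arrays, from 10.53 to 11.42. GPS1, COPS6, COPS7A and both COPS7B probes had estimates between -0.26 and 0.25, with adjusted p of at least 0.325. COPS2 was at -0.27 from 1 TT control array, with an interval from -1.51 to 0.97. By size, here without overlap of the control groups in place of the slide pairs, 1 of 9 genes was higher (COPS5) and 1 lower (COPS8), against 27.2% and 29.8% of genes. By probe, 1 of 11 was higher and 2 lower by size (both COPS8 probes), against 26.5% and 30.9% of probes. At an unadjusted p under 0.05 there were 2 of 9 genes and 3 of 11 probes, beside 58.3% of genes and of probes with an average of at least 6 (38.1% of all probes). The median of the subunits was -0.08 and that of all genes -0.05.

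The order of the 4 groups for each gene followed the lines for COPS4 and COPS5, with both TT groups above both Nthy-ori 3-1 groups, and for COPS3 and the near COPS8 probe, with both TT groups below. For COPS3, COPS4 and COPS5 the 4 arrays of one line were clear of the 4 of the other, as they were for 27.8% of all genes with TT higher and 31.3% with TT lower. The near COPS8 probe was not clear, since 1 array of each line was at 10.17. For COPS3 the order ran from the Nthy-ori 3-1 controls (12.85) over pre-miR-375 (12.62) to the TT controls (12.37) and antagomiR-375 (12.35), and the last pair overlapped. The far COPS8 probe had another order, antagomiR-375 in TT (8.08), the Nthy-ori 3-1 controls (7.79), the TT controls (7.08) and pre-miR-375 in Nthy-ori 3-1 (6.75), where the first 2 steps were clear of overlap and the last was not. For COPS6, COPS7A and the far COPS7B probe no neighbouring groups were clear of each other.

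The enzymes that attach NEDD8 were compared beside the complex that removes it. Of 12 such genes, 0 passed at an adjusted p of 0.05 in either treatment, 3 had an unadjusted p under 0.05 in Nthy-ori 3-1 and 0 in TT, beside 22.9% and 10.2% of all genes. By size 2 of 12 were lower with pre-miR-375 (8.25% of all genes were), both of the DCUN1D family, whose proteins help load NEDD8 onto cullins. DCUN1D4 was at 7.86 and 8.89 in the controls and at 6.38 and 7.91 with the mimic (-1.23, standard error 0.196, adjusted p = 0.318). DCUN1D5 was at 12.83 and 12.88 in the controls and at 11.79 and 11.65 with the mimic (-1.13, standard error 0.103, adjusted p = 0.318), with no overlap. Over the alternatives, DCUN1D4 and DCUN1D5 were each called in 2 of 12, at adjusted p down to 0.0302 and 0.0230. No alternative called over 10.9% of its probes with pre-miR-375. The family did not share a sign. DCUN1D3 was at 0.44 (adjusted p = 0.344). The probes of DCUN1D1, assigned to different transcripts, were at 0.44 on the brighter one (adjusted p = 0.532) and -0.92 on the other (adjusted p = 0.318). The other probe, at -0.97 and -0.87 on the slides, was lower by size, but the brighter one stood for the gene in the count. That other probe was also called in 2 of 12 alternatives. In TT cells DCUN1D4 and DCUN1D5 were at 0.00 to 2 decimals, with adjusted p of 0.998 and 0.996. DCUN1D5 was also lower in the TT controls than in the Nthy-ori 3-1 controls (-1.10, adjusted p = 0.00254), and 5 of the 12 genes were called between the lines, beside 48.0% of all genes with an average of at least 6.

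Of the 8 cullins, 7 had a negative difference with pre-miR-375, at a median of -0.33, and 6 a positive one with antagomiR-375, at a median of 0.07, beside 44.5% and 48.2% of all genes, and 0 passed in either line. At an unadjusted p under 0.05 there were 2 and 0 of 8, again beside 22.9% and 10.2% of all genes. CUL5 was the cullin that was lower by size, from 8.42 and 9.44 to 7.85 and 8.23 (-0.89, standard error 0.237, adjusted p = 0.371), and it was at 0.19 in TT cells. Counted by the brighter probe of each gene, 3 of the 8 cullins were called between the lines (48.0% of all genes were). All 3 were lower (24.4% of genes were). CUL1, CUL2 and CUL4A were lower in the TT controls than in the Nthy-ori 3-1 controls, by differences of -1.57, -1.28 and -1.62. Their adjusted p was 0.0214, 0.0256 and 0.00426. CUL4B was at -0.58 on the brighter of its probes (adjusted p = 0.344). Its other probe, also well above background on 8 of 8 arrays, was at -1.86 (adjusted p = 0.00244). Over the alternatives, CUL4A was called in 11 of 11, CUL1 in 7 of 11 and CUL2 in 6 of 11. Of 16 adaptors and receptors of cullin ligases, 1 gene was lower by size with pre-miR-375 (again beside 8.25% of all genes). It was KLHL12, a receptor that pairs with CUL3, which went from 9.41 and 9.25 to 8.50 and 8.76 (-0.71, adjusted p = 0.355). Its other probe, dimmer, gave -0.05. The 16 genes had medians of -0.03 and -0.11 in the treatments, and 9 of them were called between the lines, beside the same 48.0% of all genes.

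The 7 regulators and partners of the complex had no call in any comparison, at an adjusted p of 0.05 (48.0% of all genes were called between the lines) or by size in the treatments (8.25% and 6.9% of genes were lower and higher with pre-miR-375, 1.47% and 2.85% with antagomiR-375), with medians of 0.12 in Nthy-ori 3-1 and -0.07 in TT. Among them MYEOV2, the array's older name of COPS9, a small further subunit, was at 14.84 and 14.25 in the Nthy-ori 3-1 controls, 14.98 and 14.62 with pre-miR-375, 14.86 and 14.78 in the TT controls and 14.71 and 14.64 with antagomiR-375. Its differences were 0.25 and -0.15 (adjusted p = 0.513 and 0.655), and unlike the 9 other subunits it was lower on slide 2 than on slide 1 in both Nthy-ori 3-1 groups, as 43.5% of all genes were. Its other probe was not well above background on any array. CAND1, which exchanges receptors on cullins that lack NEDD8, was at 0.12 and -0.27.

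**Figure D5:**
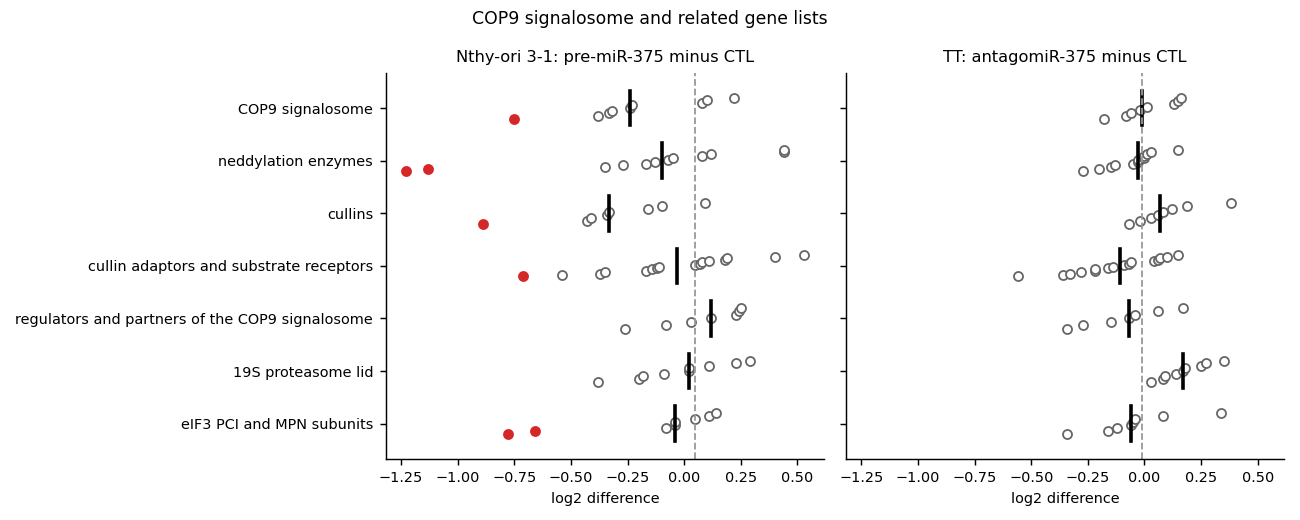
Log2 differences (horizontal axis) of the COP9 signalosome genes and of 6 related lists, with 1 symbol per gene, for pre-miR-375 in Nthy-ori 3-1 and antagomiR-375 in TT. Filled symbols are genes called by size, bars are list medians and the dashed line is the median of all genes. All filled symbols lie at -0.66 or below in Nthy-ori 3-1, and TT has none.

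The lid of the proteasome has a counterpart for each subunit of the COP9 signalosome. With pre-miR-375, PSMD11, the counterpart of COPS2, had a difference of 0.02, and PSMD8, that of COPS8, of 0.29. The others were at -0.18 for PSMD6 (GPS1), -0.20 for PSMD3 (COPS3), -0.38 for PSMD12 (COPS4), 0.02 for PSMD14 (COPS5), 0.11 for PSMD7 (COPS6) and -0.09 for PSMD13 (COPS7A and COPS7B), all with adjusted p of at least 0.404. With antagomiR-375 all 9 lid genes had positive differences, from 0.03 to 0.35 with a median of 0.17, whereas 48.2% of all genes had one and their median was -0.01, and 0 were called (0 at an unadjusted p under 0.05, beside 10.2% of genes). Between the controls, PSMD14, the deubiquitinase that corresponds to COPS5, was at -0.65 (adjusted p = 0.0903) where COPS5 was at 1.37. PSMD8 was higher in TT (1.13, adjusted p = 0.00364) where COPS8 was at -0.72. The signs also differed for PSMD12 (-1.57, adjusted p = 0.00308) and COPS4 (0.54), PSMD13 (-0.93) and COPS7A (0.25), and PSMD7 (0.03) and COPS6 (-0.26). They were the same for PSMD3 (-0.91) and COPS3 (-0.48), PSMD6 (-0.73) and GPS1 (-0.08), and PSMD11 (-0.15) and COPS2 (-0.27). Of the 9 lid genes 3 were called between the lines, beside 48.0% of all genes.

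Of 8 eIF3 subunits of the same families, 2 were lower by size with pre-miR-375, as were 8.25% of all genes. EIF3A was at 14.69 and 15.00 in the controls and at 13.86 and 14.27 with the mimic (-0.78, standard error 0.0867, adjusted p = 0.318), and EIF3M was at 13.46 and 13.75 and then at 12.77 and 13.12 (-0.66, standard error 0.0817, adjusted p = 0.318). Their groups did not overlap. Each gene was called in 2 of 12 alternatives, at adjusted p down to 0.0339 and 0.0420, where no alternative called over 10.9% of its probes. In TT cells EIF3A and EIF3M were at 0.34 and -0.16. The other EIF3A probe, well above background on 6 of 8 arrays, gave -0.36 and 0.72 in the treatments.

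The mean of the 9 subunits, each centred on its own mean, was most like that of CSGALNACT2 (Pearson's r = 0.992), CEP112 and VDAC1 (0.990 each) among 15931 genes over the 8 arrays. On the TT control array without a COPS2 value the mean was taken over 8 subunits. The points share lines and slides, and the subunit mean itself was -0.22 and 0.28 in the Nthy-ori 3-1 controls, -0.49 and 0.15 with pre-miR-375, 0.00 and 0.14 in the TT controls and 0.03 and 0.11 with antagomiR-375. These r describe 8 arrays and carry no test.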

How the data were processed

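Expression was measured on 8 Agilent SurePrint arrays (Feature Extraction 10.10.1.1), labelled from 0.2 µg of RNA that the labels call polyA and the methods total. Per the labels and the deposited files, each spot has a processed, mean, median and background intensity, not normalized between arrays, and flags for outlier spots and signal above background. The authors also deposited log2 values, which rank spots like the median signal (Spearman's rho 1.0) and were normalized within each line. Here the log2 processed intensity was used, without control spots and outlier spots (341 to 428 per array), repeated spots entered as their mean per probe, and quantile normalization was run over the 8 arrays together. Limma 3.58.1 (R 4.3.3) was fitted with slide as a block within each line, as a random block between controls (correlation 0.506), and over 8 arrays for the difference of effects, with Benjamini-Hochberg adjustment over all probes (50587 to 50599). Arrays of a slide deviated together (correlation 0.803 in Nthy-ori 3-1 and 0.347 in TT over 22190 probes). The fits were tested on simulated data, and alternatives changed the signal, scaling, background correction, filter, block and replicates. The deposited values and the median signal change signal, background correction and normalization together, and normexp changes signal and background correction. The number of arrays limits the precision: with 2 against 2, an exact unpaired permutation test cannot go below p = 0.333. One that kept the slide pairs of the treatment fits would have a higher limit. Named are the 9 subunits, related genes called by adjusted p or size in a treatment (at most 3 per list), the lid counterparts and the 3 most similar genes. CUL1, CUL2, CUL4A, CUL4B, CAND1, DCUN1D1, DCUN1D3 and MYEOV2 were named after their values were seen. Members and lists were chosen with earlier results of these data known. Gene names are those of the array design. Some marker genes are not reported here.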

Additional observations from a re-analysis of the deposited data

How the results depend on the processing

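The limits are the 2 arrays per group and the 1 residual degree of freedom of each treatment fit. Single-probe results kept their direction and side of the threshold in 497 of 534 recomputations. Those that changed sign had main estimates from -0.18 to 0.25 or rested on COPS2. When a replicate was left out, they ran with pre-miR-375 from -0.12 to 0.29 for COPS7A and from -0.0165 to 0.219 for GPS1. With antagomiR-375 they ran from -0.41 to 0.052 for COPS7A, from -0.166 to 0.00492 for the far COPS7B probe, from -0.15 to 0.105 for COPS3 and from -0.00256 to 0.0239 for the near COPS8 probe. Between the controls they ran from -0.597 to 0.0891 for COPS2, from -0.00318 to 0.506 for COPS7A and from -0.0606 to 0.0732 for the far COPS7B probe. For the difference of effects they ran from -0.25 to 0.133 for COPS5 and from -0.0707 to 0.165 for GPS1. With antagomiR-375, COPS3 was 0.0127 with the deposited values, 0.00575 with normexp and 0.0144 with the median signal, and the near COPS8 probe was -0.00849 and -0.0162 with the deposited values and the median signal. With outlier spots kept, COPS2 turned to 2.08 between controls and to -1.71 in the difference of effects. The cause was not tested.

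With normexp and with dim probes left out, the far COPS8 probe was called with pre-miR-375, but the brighter probe stood for its gene. By the brighter probes, the number of subunits called with pre-miR-375 went from 0 to 1 (COPS2) in these 2 settings. They called 3.08% and 10.9% of all probes. The number called between controls went from 1 to 2 with normexp and with the variance trend (COPS5 and COPS3). The median of the subunits with pre-miR-375 was -0.314 with the 75th percentile as the scale. Without a replicate it was -0.227 to -0.155, with COPS2 counted by its difference on the slide that was left. With antagomiR-375 it became 0.0546 with all probes of a gene averaged, and 0.038 to 0.0511 without a replicate. In TT, 1 subunit (COPS2) was lower by size with outlier spots kept, where the count was otherwise 0. Between controls, the number lower by size was 0 to 1 and that higher by size 1 to 2 without a control array. Without the replicate block, the counts of subunits called were 0 with pre-miR-375, 0 with antagomiR-375 and 1 between controls, as with it. No scaling moved the median of the probes with an average of at least 6 by more than 0.1 on the log2 scale. Normalization within each line, the deposited values and the median signal were not run between the lines, which they normalize separately. COPS2 with pre-miR-375 could not be fitted without a replicate, since the 1 slide pair left was fitted beside the TT arrays. The COPS7B probes and the far COPS8 probe were the dimmest of the 11. With normexp, which changes signal and background correction together, the far COPS8 estimate with pre-miR-375 went from -1.03 to -0.70.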
